A study of Mus musculus with 9 samples.

Results

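The genes described here are those of 4 heart connexins and of the pacemaker channel Hcn4, chosen by name from a list of 6: Gja1, Gja4, Gja5, Gjc1, Hcn2 and Hcn4. The table of normalized gene counts holds 13795 gene symbols, and 5 of the 6 were found among them. Hcn2 was not analysed here. RNA was sequenced from whole heart tissue of C57BL/6 mice, 4 samples from mice given vehicle and 5 from mice given oxaliplatin at 10 mg/kg, with collection after 8 weeks. No transgene or deletion is named for either group, and the sources used here give no ages. Nothing in the labels ties a sample to an animal of its own. Each p-value therefore sets a group difference against the spread of these samples, a spread that may be technical. The comparison asked how oxaliplatin, a platinum drug used against cancer, changed gene expression in the heart.

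Connexins are membrane proteins that assemble into gap junctions, the pores through which ions and small molecules pass from one cell to the next. In heart muscle they carry the action potential between myocytes, and most of those channels sit at the intercalated disc, the end-to-end contact of the cells. Gja1 encodes connexin 43, the main connexin of working ventricular muscle. Gja5 encodes connexin 40, found in atrial muscle, in the fast conduction system and in arterial endothelium, and Gja4 encodes connexin 37 of endothelium. Gjc1 encodes connexin 45, known from nodal and early heart muscle and also made in vascular smooth muscle. HCN channels open on hyperpolarisation, bind cyclic AMP and carry the pacemaker current; Hcn4 is the main form of the sinoatrial node.

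On GRCm38, Gja1 lies on chromosome 10 from 56377330 to 56402513 on the plus strand, Gja4 on chromosome 4 from 127311421 to 127314039 on the minus strand, and Gjc1 on chromosome 11 from 102799579 to 102819700 on the minus strand. Hcn4 lies on chromosome 9 from 58823412 to 58863175 on the plus strand. Gja5 spans chromosome 3 from 96904693 to 97077416 on the plus strand, and its GENCODE M21 gene model overlaps genes of the other strand, among them Gpr89. The overlap is one of whole gene spans, and whether exons overlap was not examined. Whether the counting used strand is not given in the sources either. It is therefore not known whether reads of these genes were counted for Gja5. The estimated reads of Gja5 lay within 0.02 of a whole number in 2 of 9 samples, those of Gja1 in 0 of 9, and those of Gja4, Gjc1 and Hcn4 in 9 of 9. The gene model of Gja1 overlaps no other gene. Its 11394 to 19273 estimated reads lay above the 1 to 1000 over which whole reads were judged, so Gja1 is no comparison for Gja5 here. The cause of the fractional reads of Gja5 was not tested.

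The 250 bases before the RefSeq start (GRCm38.p6) are shown for the connexin that fell, for the endothelial connexin that rose and for the connexin that followed the atrial markers, with the letters found by a motif search in capitals. They are chr10:56377050-56377299 on the plus strand for Gja1, chr4:127314040-127314289 on the minus strand for Gja4 and chr3:97032152-97032401 on the plus strand for Gja5. The Gja5 window lies inside the GENCODE M21 span given above, which holds 3 transcripts, and no other start of Gja5 was searched.
Gja1: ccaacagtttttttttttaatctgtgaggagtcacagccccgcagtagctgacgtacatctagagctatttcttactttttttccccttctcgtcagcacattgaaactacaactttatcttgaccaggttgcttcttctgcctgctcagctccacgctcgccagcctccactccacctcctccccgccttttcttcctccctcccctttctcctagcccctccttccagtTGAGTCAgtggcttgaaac
Gja4: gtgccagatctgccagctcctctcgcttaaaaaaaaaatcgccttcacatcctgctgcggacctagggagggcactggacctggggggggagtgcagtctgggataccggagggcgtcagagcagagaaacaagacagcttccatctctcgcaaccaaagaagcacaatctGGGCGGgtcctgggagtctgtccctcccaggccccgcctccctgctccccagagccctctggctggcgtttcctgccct
Gja5: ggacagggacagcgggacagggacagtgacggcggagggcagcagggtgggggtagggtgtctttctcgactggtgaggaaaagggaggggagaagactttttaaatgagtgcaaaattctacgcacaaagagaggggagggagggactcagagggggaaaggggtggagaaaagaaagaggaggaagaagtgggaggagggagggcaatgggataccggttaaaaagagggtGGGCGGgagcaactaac
Both strands were searched for 4 motifs chosen after the sequences were seen: the AP-1 site TGANTCA, the GC box GGGCGG, the T-box half-site AGGTGT and the TATA box TATAAA. Gja1 held an AP-1 site beginning at position -19 from the start, a motif held by 6.75% of the 32851 promoter windows of the same length. Gja4 held a GC box at -79 and Gja5 one at -17, as did 32.7% of windows. The Hcn4 window, on chromosome 9 from 58822699 to 58822948, held GC boxes at -196 and -163 and the T-box half-site at -233, the latter held by 11.8% of windows. None of the 4 windows held the TATA box, which 12.4% of windows did. Gjc1 was not among the windows.

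Samples held an estimated 28.5 M to 36.2 M reads, and a single read was worth 0.813 to 1.20 normalized counts. Defining genes of heart muscle were abundant in both groups, with alpha myosin heavy chain, Myh6, at 300235 normalized counts on average in vehicle samples. A marker score is the mean log2 level of a cell type's listed genes, each gene centred on its mean over the 9 samples. The atrial marker score was highest in vehicle 1 (3.07), oxaliplatin 2 (3.95) and oxaliplatin 4 (3.34), and the other samples spread from -4.86 to 1.27 with gaps as wide as the one below these 3. How much atrium each sample held was not recorded in the labels, so results are given with and without those 3 samples where the call changes. In tissue of mixed cells, fewer cells of a type and less RNA per cell cannot be told apart.

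Gja1 was lower and both Gja4 and Gjc1 were higher in oxaliplatin samples, while Gja5 and Hcn4 did not pass the test. In limma, an adjusted p under 0.05 was met by 3 of the 5 members, 2 higher and 1 lower. Among all genes tested 1966 of 13788 genes (14.3%) passed, 1272 higher (9.23%) and 694 lower (5.03%). At least 3948 of the 13788 had an unadjusted p under 0.05 in limma, a share to set beside the counts at that threshold below. With the 3 samples of high atrial score left out, 3 members passed as well, but these were Gja4, Gja5 and Gjc1. For Gja5 this is a description, because its relation to that score was known beforehand. The groups did not overlap for 2 members, Gja4 and Gjc1, and for 14.9% of all genes tested. The median log2 fold change was 0.88 over the members and -0.02 over all genes, and nothing particular to these 5 genes is read from so short a list.

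**Figure D1:**
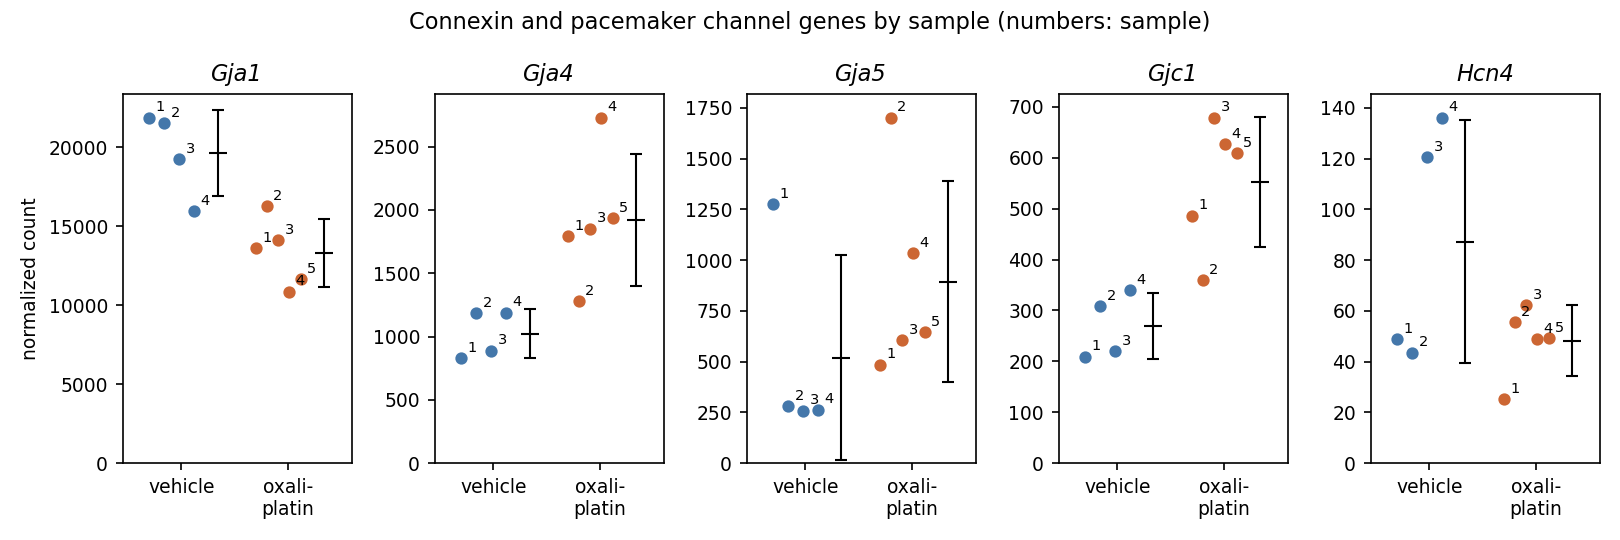
Normalized count of each gene (vertical axis, from 0) in the 4 vehicle samples (blue) and 5 oxaliplatin samples (orange), each point numbered by its sample, with the group mean and SD as a bar to the right. Gja4 and Gjc1 separate without overlap, Gja1 overlaps at vehicle 4 and oxaliplatin 2, and the vehicle samples of Gja5 split into 1 high and 3 low.

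Gja1, the connexin of ventricular muscle, fell by 0.57 on the log2 scale (standard error 0.15; 95% interval -0.88 to -0.25; limma adjusted p = 0.0221). The 4 vehicle samples, in the order of their numbers, held 21873, 21529, 19239 and 15950 normalized counts. The 5 oxaliplatin samples held 13615, 16270, 14108, 10859 and 11675. Only oxaliplatin 2 exceeded the lowest vehicle sample, vehicle 4, and the other 4 oxaliplatin samples lay below every vehicle sample. The group means were 19648 ± 2729 (SD, n = 4) and 13305 ± 2132 (SD, n = 5), a fold of 0.676 from the log2 difference. The call did not hold without vehicle 1 (limma adjusted p = 0.0698), vehicle 2 (0.0759), vehicle 3 (0.0591), oxaliplatin 4 (0.0552) or oxaliplatin 5 (0.0570), nor once the 3 samples of high atrial score were left out (0.0838), with log2 fold changes between -0.57 and -0.50 in these fits.

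Gja4, the connexin of endothelium, rose by a log2 fold change of 0.88 (standard error 0.19; 95% interval 0.47 to 1.30; limma adjusted p = 0.00976). Vehicle samples 1 to 4 held 827, 1187, 888 and 1190 normalized counts. Oxaliplatin samples 1 to 5 held 1791, 1279, 1854, 2729 and 1939. Every oxaliplatin sample was above every vehicle sample, with oxaliplatin 2 the nearest to them and oxaliplatin 4 the farthest. The mean went from 1023 ± 193 (SD, n = 4) to 1918 ± 521 (SD, n = 5), or 1.85-fold, and the call held with each sample left out in turn.

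Gjc1, the connexin of nodal muscle and vascular smooth muscle, rose by a log2 fold change of 1.03 (standard error 0.20; 95% interval 0.59 to 1.47; limma adjusted p = 0.00608). Vehicle samples 1 to 4 held 209, 308, 220 and 340 normalized counts, and oxaliplatin samples 1 to 5 held 486, 360, 679, 627 and 610. As with Gja4, the ranges of the groups were apart and oxaliplatin 2 lay closest to vehicle. The mean was 269 ± 64.6 (SD, n = 4) in vehicle and 553 ± 129 (SD, n = 5) in oxaliplatin samples, a 2.04-fold difference. Its call, too, held with each sample left out.

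Gja5, the connexin of atrial muscle, conduction fibres and arteries, did not pass (log2 fold change 1.02, standard error 0.57, 95% interval -0.29 to 2.34, limma adjusted p = 0.282). Vehicle samples 1 to 4 held 1277, 280, 259 and 264 normalized counts, and oxaliplatin samples 1 to 5 held 486, 1702, 606, 1033 and 646. Vehicle 1 alone made the groups overlap, for the other 3 vehicle samples lay below every oxaliplatin sample. Group means were 520 ± 505 (SD, n = 4) and 894 ± 496 (SD, n = 5). The 3 highest values belong to the 3 samples of high atrial score. Among the 6 remaining samples, 3 in each group, the log2 fold change was 1.10 with a standard error of 0.17 (limma adjusted p = 0.00118), with vehicle values of 259 to 280 and oxaliplatin values of 486 to 646. Samples were left out here by a score that Gja5 was known to follow. That choice narrows the spread of Gja5, so the p of this fit is a description and no support. Without vehicle 1 alone it was 1.58 (limma adjusted p = 0.0217), and a fit that added the atrial score gave 0.83 (limma adjusted p = 0.107).

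Hcn4, the pacemaker channel of the sinoatrial node, did not pass (log2 fold change -0.73, standard error 0.38, 95% interval -1.55 to 0.09, limma adjusted p = 0.228). Vehicle samples 1 to 4 held 49.0, 43.6, 120 and 136 normalized counts, and oxaliplatin samples 1 to 5 held 25.1, 55.5, 62.2, 48.8 and 49.3. Vehicle 3 and vehicle 4 were high, and the other vehicle samples lay within the oxaliplatin range. Means were 87.3 ± 47.8 (SD, n = 4) and 48.2 ± 14.0 (SD, n = 5). Only 21 to 135 estimated reads per sample lay behind these values, and the interval of the difference still reached down to -1.55.

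Per kilobase of exon, where levels of different genes can be set side by side, Gja1 stood first. Its mean normalized count per kilobase over the union of its exons was 1916 ± 266 (SD, n = 4) in vehicle and 1297 ± 208 (SD, n = 5) in oxaliplatin samples. Gja4 came next at 607 ± 114 and 1138 ± 309, and its oxaliplatin range of 759 to 1620 overlapped that of Gja1, 1059 to 1586. With the longest transcript as the length, Gja1 stood at 5052 and 3421 and no longer overlapped Gja4. Gja5 held 90.5 ± 87.9 and 156 ± 86.3 per kilobase and Gjc1 53.9 ± 12.9 and 110 ± 25.7, and the ranges of these neighbours overlapped in both groups. Hcn4 was the lowest member at 14.3 ± 7.82 and 7.87 ± 2.29 per kilobase. In vehicle samples Gja1 and Gja4 did not overlap, with the lowest Gja1 value at 1555 and the highest Gja4 value at 706, and in neither group did Hcn4 reach the lowest Gjc1 value.

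The slope on the atrial marker score, fitted beside the group term, gives the log2 difference in a gene for each log2 unit of the score. For Gja5 it was 0.23 with a standard error of 0.06, given as a description because this relation was known when the gene was chosen. Between the vehicle samples of highest and lowest atrial score, vehicle 1 and vehicle 3, Gja5 differed as 1277 to 259 normalized counts. The other vehicle samples, 259 to 280, showed no order with the score. Between the oxaliplatin samples of highest and lowest score, oxaliplatin 2 and oxaliplatin 1, it differed as 1702 to 486. The other 4 members had slopes near 0, at 0.01 for Gja1, -0.01 for Gja4, -0.02 for Gjc1 and 0.04 for Hcn4. By limma 0 of these 4 passed, and 0 had an unadjusted p under 0.05, against 691 of 13788 genes (5.01%) that passed, a count that moved by over 1.5 times with any 1 sample left out, down to 110 without oxaliplatin 1 and up to 1315 without vehicle 4. The 3 samples of high atrial score, vehicle 1, oxaliplatin 2 and oxaliplatin 4, held 49.0, 55.5 and 48.8 normalized counts of Hcn4. With these 3 left out, the log2 fold change of Hcn4 was -1.05, with a standard error of 0.45, and did not pass (limma adjusted p = 0.169).

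**Figure D2:**
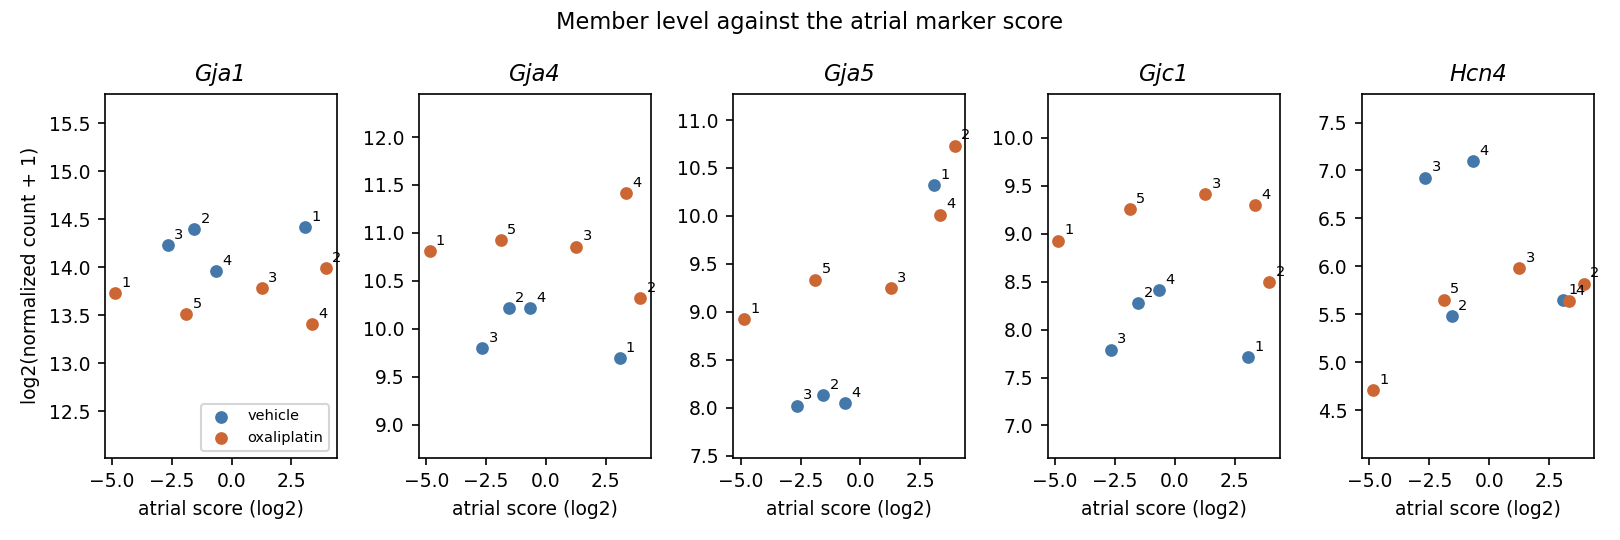
Level of each gene as log2(normalized count + 1) (vertical axis, same span in each panel) against the atrial marker score in log2 units (horizontal axis), with vehicle samples in blue, oxaliplatin samples in orange and points numbered by sample. Gja5 is highest in the 3 samples at the right, with a slope of 0.23; in vehicle samples vehicle 1 alone stands above 3 samples at one level, and the other 4 genes have slopes between -0.02 and 0.04.

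Markers of other cell types moved with the groups. The cardiomyocyte score was 0.05 to 0.30 in vehicle and -0.32 to 0.02 in oxaliplatin samples, with 2 of 12 markers lower (Myh6 and Tcap) and a median log2 fold change of -0.30. The endothelial score was -0.40 to -0.25 in vehicle and -0.16 to 0.52 in oxaliplatin samples, with 3 of 12 markers higher (Pecam1, Eng and Robo4) and a median of 0.46. Pecam1, an adhesion receptor of endothelial junctions, rose by a log2 fold change of 1.33 and Eng, a coreceptor of the TGF-beta family, by 1.06. Eng was outside the naming rule and was singled out after its value was seen. Egfl7, an endothelial marker of higher mean than Eng, had a log2 fold change of 0.48 and did not pass (limma adjusted p = 0.0865). For neither list did the scores of the groups overlap. By limma 0 cardiomyocyte markers rose and 0 endothelial markers fell, also at an unadjusted p under 0.05 and by voom on estimated reads. With oxaliplatin 2 left out the endothelial count was 5, and with the 3 samples of high atrial score left out it was 8. The cardiomyocyte count was 1 without those 3.

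Of 8 measured arterial endothelial markers 4 rose, namely Hey1, Bmx, Sema3g and Jag1 (median 0.63; score -0.39 to -0.37 in vehicle and -0.01 to 0.61 in oxaliplatin samples). That count was 2 without vehicle 2, vehicle 3, oxaliplatin 3, oxaliplatin 4 or oxaliplatin 5, and 1 without vehicle 4. Among 6 pericyte markers 2 rose, Pdgfrb and Vtn (median 0.55; score -0.39 to 0.02 against -0.25 to 0.58), and the count of 2 became 0 without vehicle 2, vehicle 3 or oxaliplatin 3, 1 without vehicle 1, oxaliplatin 4 or oxaliplatin 5, and 4 without oxaliplatin 2. Of 7 smooth muscle markers 1 rose, Mylk (median 0.73; score -0.79 to 0.18 against -0.30 to 1.02), and of 10 fibroblast markers 1 rose, Postn (median 0.43; score -0.80 to -0.12 against -0.50 to 1.01; a count of 3 without oxaliplatin 1). By limma and by voom 0 markers of these 4 lists fell, and 1 pericyte marker was lower at an unadjusted p under 0.05, with a count of 1 lower without oxaliplatin 3. The pericyte, smooth muscle and fibroblast scores overlapped between the groups. Of 5 ventricular markers Myl2, Irx4 and Kcnip2 fell, and Hey2 rose but did not pass without vehicle 1, vehicle 3, vehicle 4 or any of oxaliplatin 1, oxaliplatin 3, oxaliplatin 4 and oxaliplatin 5; the score overlapped as well, and Hey2 did not pass either once the 3 samples of high atrial score were left out. Erythroid markers gave 0 calls of 8 by limma and by voom, with 6 lower at an unadjusted p under 0.05, and their score was 0.58 to 1.65 in vehicle and -2.91 to 1.96 in oxaliplatin samples, where oxaliplatin 3 alone lay within or above the vehicle range. Without oxaliplatin 3 the 6 passed, and with no trend and no robust moderation 3 did. Of 8 macrophage markers Cd68 and Lyve1 rose, by log2 fold changes of 1.21 and 1.59, and Cd163 fell by 1.24 (median 0.06; score -0.26 to 0.16 in vehicle and -0.74 to 0.62 in oxaliplatin samples), and the lower count was 2 without oxaliplatin 3.

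Of 7 measured conduction system markers 0 passed in either direction by limma or by voom on estimated reads. An unadjusted p under 0.05, met by at least 3948 of the 13788 genes tested, was found for 1 of these markers, Cacna1g. The 2 of highest mean were Tbx3, a T-box repressor of the nodes, at 399 ± 62.1 and 469 ± 94.1 normalized counts, and Cntn2, a cell adhesion molecule of conduction fibres, at 240 ± 139 and 123 ± 83.1 (SD, n = 4 and n = 5). The conduction system score spread from -0.60 to 0.86 in vehicle and from -1.91 to 1.08 in oxaliplatin samples, and the groups overlapped. The 7 atrial markers gave 0 calls by limma and by voom, and 0 at an unadjusted p under 0.05. The part of these cell types in the member results was not tested beyond the comparisons that follow.

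Each member was then set against the score of a cell type that makes it, as a log2 difference within a sample, and 7 differences were compared by an exact two-sided permutation test of the 9 samples, which can give no p below 0.0159. Gjc1 minus the cardiomyocyte score was 1.39 higher in oxaliplatin samples, from 7.85 ± 0.31 (SD, n = 4) to 9.24 ± 0.43 (SD, n = 5), without overlap (exact p = 0.0159, adjusted p = 0.0556). The log2 ratio of Gjc1 to Gja1 was 1.59 higher, from -6.20 ± 0.50 (SD, n = 4) to -4.61 ± 0.56 (SD, n = 5), with vehicle samples at -6.70 to -5.55 and oxaliplatin samples at -5.49 to -4.11 (exact p = 0.0159, adjusted p = 0.0556). Both reached the smallest p the design allows and missed the threshold once adjusted over the 7. Each combines the rise of Gjc1, whose groups were already apart, with the fall of the cardiomyocyte score or of Gja1 given above. Neither is therefore separate support for a change of Gjc1.

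The fall of Gja1 was smaller against the cardiomyocyte markers, at -0.20, and the groups overlapped (exact p = 0.333, adjusted p = 0.467). Gja4 minus the endothelial score differed by 0.29, also with overlap (exact p = 0.175, adjusted p = 0.306). The log2 ratio of Gja5 to Gja1 was 1.59 higher, but vehicle 1, at -4.10, lay among the oxaliplatin samples (exact p = 0.0635, adjusted p = 0.148). Hcn4 minus the cardiomyocyte score differed by -0.36 (exact p = 0.460, adjusted p = 0.537), and Gja5 minus the atrial score by 0.21 (exact p = 0.937, adjusted p = 0.937). Gja5 changed by only 0.23 per unit of the atrial score, so its difference from that score mostly follows the score with its sign reversed. That difference was 13.8 in oxaliplatin 1, of lowest score, and 6.79 in oxaliplatin 2, of highest score. The lowest value was 6.67, in oxaliplatin 4, also of high score. That test therefore cannot show whether Gja5 differed at a like atrial score. None of these 5 passed, and in each the groups overlapped.

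**Figure D3:**
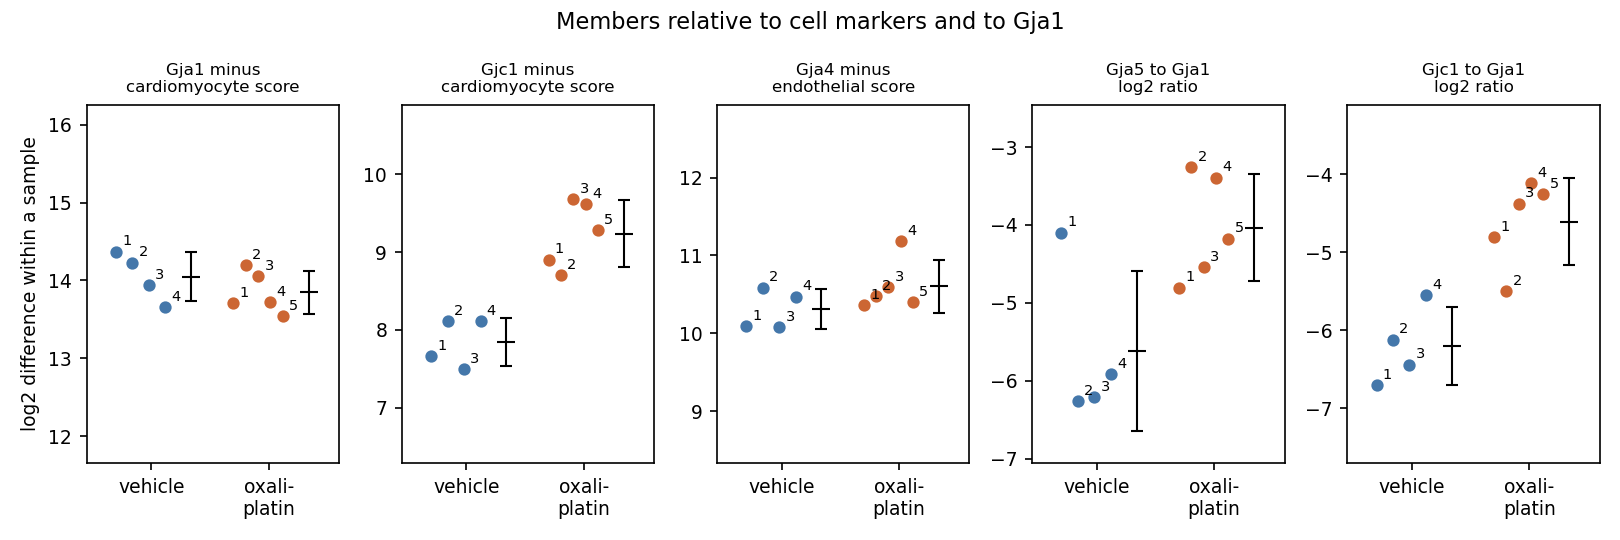
Log2 difference within each sample (vertical axis, same span in each panel) of a gene and a cell type marker score, or of a gene and Gja1, in vehicle (blue) and oxaliplatin (orange) samples numbered as before, with mean and SD to the right. The panels of Gjc1 separate the groups, by 1.39 against the cardiomyocyte score and 1.59 against Gja1, and the other 3 overlap.

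Further differences were chosen after seeing the data and were not tested. Gja4 minus the arterial endothelial score differed by 0.20 and Gja5 minus it by 0.34, each with overlapping groups. Gjc1 minus the pericyte score differed by 0.63, between vehicle values of 8.10 to 8.48 and oxaliplatin values of 8.75 to 9.08. Against the smooth muscle, fibroblast and endothelial scores, Gjc1 differed by 0.39, 0.36 and 0.44, and the groups overlapped. On average Gjc1 thus rose more than the pericyte, smooth muscle, fibroblast and endothelial lists, and the groups were apart against the pericyte list alone. Single markers spread widely around these averages, from -0.38 for Abcc9 of the pericyte list to 2.44 for Postn of the fibroblast list. Whether cell make-up accounts for the rise of Gjc1 was not tested.

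The other connexins and pannexins were scarce in the table, with 3 of 19 listed symbols found. By limma and by voom on estimated reads 0 of the 3 passed, and 2, Panx1 and Gjb5, had an unadjusted p under 0.05. The count was 1 without vehicle 4 or oxaliplatin 1 and with the atrial score as a further term, and 2 with array weights or with that score computed without Nppa. Panx1 encodes pannexin 1, a membrane channel related to gap junction proteins, and went from a range of 1.08 to 32.3 to one of 21.5 to 61.0 normalized counts (log2 fold change 2.05, limma adjusted p = 0.0688). Gjb5, a connexin of epithelia, was at 0 in vehicle 2 and vehicle 3 and at 5.98 and 6.05 in the other vehicle samples, against 2.39 to 115 in oxaliplatin samples (limma adjusted p = 0.0763). No gene of the table had a maximum below 40.6 normalized counts, and Panx1 and Gjb5 reached that level in oxaliplatin samples only. Both are thus in the table through the group where they were high. Their p-values and the counts above are a description and no support for a rise. Gja3, connexin 46 of the lens, held 362 ± 47.3 and 346 ± 32.7 normalized counts (vehicle and oxaliplatin means with SD; log2 fold change -0.06, limma adjusted p = 0.792). Per kilobase of exon Gja3, at 122 ± 16.0 and 117 ± 11.0, lay within the range of Gja5 in both groups and of Gjc1 in oxaliplatin samples, and above every Gjc1 value in vehicle samples.

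Of 24 measured genes of the intercalated disc, the structure that holds Gja1 channels, 7 fell, 2 rose and 15 did not pass, with a median of -0.21. The largest fall was that of Xirp2, an actin-binding repeat protein of the disc, with a log2 fold change of -0.76 (means of 4963 ± 1126 and 2898 ± 362 normalized counts, each with its SD; limma adjusted p = 0.00530). Desmoplakin, Dsp, which ties desmosomes to the cytoskeleton, fell by 0.67 and Nrap, an anchoring protein, by 0.57. The others that fell were plakophilin 2 (Pkp2), N-cadherin (Cdh2), Cxadr and Tmem65, and those that rose were Tmem43 (0.53) and vinculin (Vcl). The count of 7 was 4 without vehicle 2, without vehicle 3 and without the 3 samples of high atrial score, and the count of 2 was 1 without those 3 and without vehicle 1, vehicle 2, vehicle 3, oxaliplatin 3, oxaliplatin 4 or oxaliplatin 5. Scaling each sample to equal totals left 1 lower and 1 higher. The cardiomyocyte score, lower in every oxaliplatin sample than in any vehicle sample, moved with this list.

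Of 13 measured connexin partners, proteins that bind, modify or deliver connexins, 4 rose, with a median of 0.03. By limma and by voom 0 fell, and 1, Wwp1, was lower at an unadjusted p under 0.05. Caveolin 1, Cav1, a membrane scaffold abundant in endothelium, averaged 5120 ± 748 (SD, n = 4) in vehicle and 11379 ± 1966 (SD, n = 5) normalized counts in oxaliplatin samples (log2 fold change 1.15, limma adjusted p = 8.57e-04). Drebrin, Dbn1, which links connexin 43 to actin, rose by 1.82, the microtubule tip protein Mapre1 by 0.52 and casein kinase Csnk1d by 0.41. Tjp1, the scaffold ZO-1 that binds the tail of connexin 43, did not pass (log2 fold change -0.22, limma adjusted p = 0.419), and was singled out after its value was seen. The count of 4 was 2 without vehicle 2 or vehicle 3.

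Among 9 measured partners of HCN channels 0 passed by limma or by voom. An unadjusted p under 0.05, met by at least 3948 of the 13788 genes tested, was found for 2 of them. These were Bves, a cyclic AMP binding membrane protein (log2 fold change -0.45, limma adjusted p = 0.0535, groups apart), and Alg10b (-0.33, limma adjusted p = 0.158). The count was 1 without oxaliplatin 2. The cyclic AMP pathway, whose product opens HCN channels more readily, showed genes in both directions, 3 higher and 4 lower of 22 (median -0.12). The beta-1 adrenergic receptor, Adrb1, fell by 1.17 on the log2 scale, with means of 152 ± 33.1 (SD, n = 4) and 72.4 ± 33.1 (SD, n = 5) normalized counts (limma adjusted p = 0.0312). The adenosine receptor Adora1 fell by 0.70 and the phosphodiesterase Pde4a by 0.56, while Pde4b rose by 0.59 and the inhibitory G protein subunit Gnai3 by 0.54. Of the protein kinase A subunits, the catalytic Prkaca fell by 0.39 and the regulatory Prkar1a rose by 0.55. Adrb1, Prkaca and Prkar1a were outside the naming rule and were singled out after their values were seen. The count of 4 lower was 2 without vehicle 2, vehicle 3, vehicle 4 or oxaliplatin 4, and 0 with samples scaled to equal totals.

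Other channels of pacing and repolarisation gave 3 lower of 18, with a median of -0.33. By limma and by voom 0 rose, and 1 was higher at an unadjusted p under 0.05. That 0 became 1 without oxaliplatin 2, without the 3 samples of high atrial score and with equal totals. Kcnd3, a subunit of the transient outward potassium current, fell by 0.85 (means of 127 ± 9.44 and 71.3 ± 16.6 normalized counts with their SD; limma adjusted p = 0.0157). Kcnj2, of the inward rectifier current, and Cacna1c, the pore of the L-type calcium channel, fell by 0.46 each. The count of 3 was 1 without vehicle 1, vehicle 3, vehicle 4 or oxaliplatin 4, it was 5 without oxaliplatin 2, and it was 0 with samples scaled to equal totals.

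Of 16 measured transcription factors of the conduction system and chambers 1 rose and 3 fell, with a median of -0.06. Hopx, a homeodomain cofactor of cardiac conduction, had a mean of 654 ± 101 normalized counts (SD, n = 4) in vehicle and 331 ± 61.6 (SD, n = 5) in oxaliplatin samples (log2 fold change -0.99, limma adjusted p = 0.00242). Irx4, a ventricular homeobox factor, fell by 0.94 and Prrx1, a mesenchymal homeobox factor, by 0.39. Id2, a helix-loop-helix inhibitor present in conduction cells, rose by a log2 fold change of 1.12 (limma adjusted p = 0.00950).

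**Figure D4:**
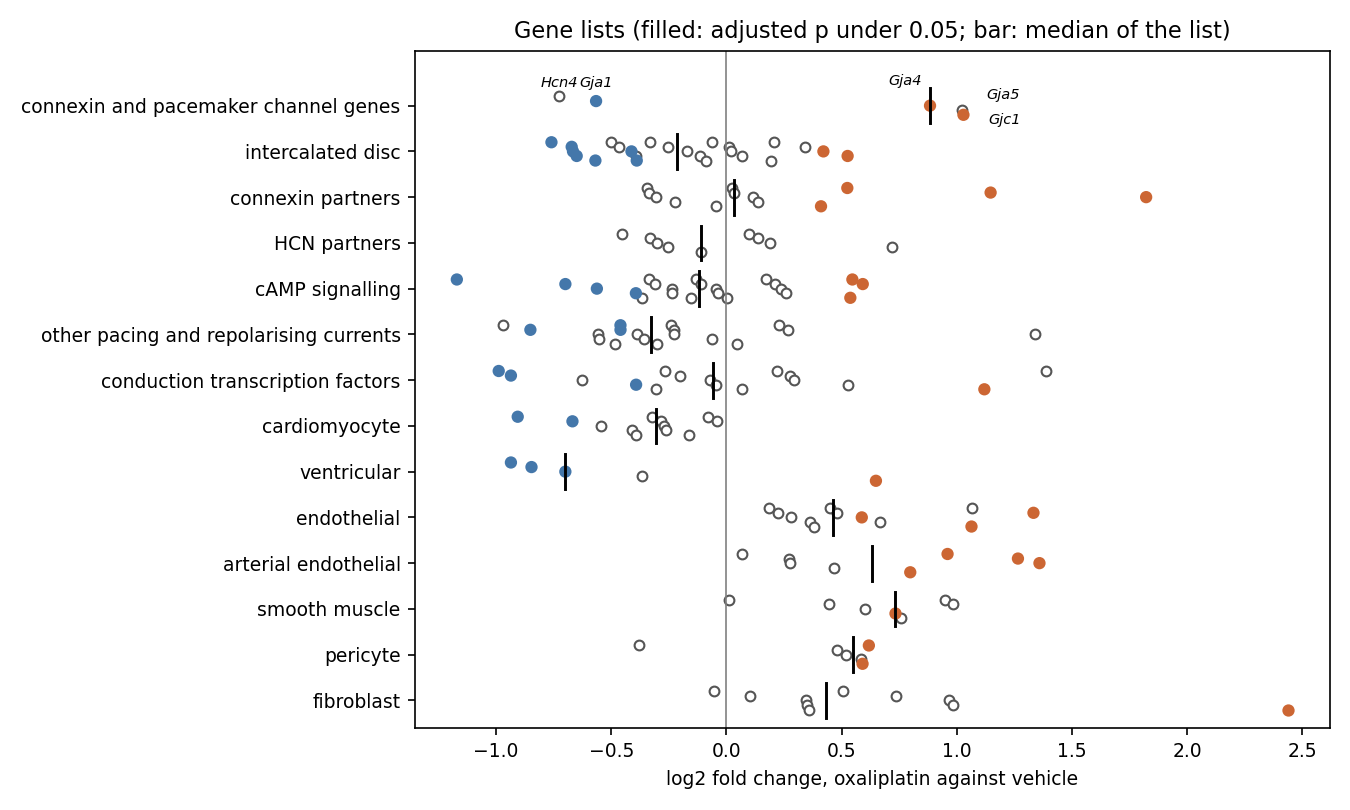
Log2 fold change of oxaliplatin against vehicle (horizontal axis) for each measured gene of each list (vertical axis), filled where the limma adjusted p was under 0.05 (orange higher, blue lower) and open otherwise, with the median of the list as a black bar; the vertical spread within a list has no meaning. The 5 connexin and pacemaker genes lie on both sides of 0, the cardiomyocyte list sits to the left of it with a median of -0.30 and the endothelial list to the right with a median of 0.46.

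For each member the genes of most similar pattern were found among 10048 genes with a mean of at least 100, by Pearson r of deviations from the group means over the 9 samples, given as a description. Those nearest Gja1 were Rdm1 (r = 0.977), Zfp758 (0.975) and Rrm2b (0.962), and those nearest Gja4 were Tsc22d3 (0.962), Slc10a6 (0.949) and A4galt (0.941). Gja5 was most like Hspa13 (0.956), Atxn3 (0.955) and Upk3b (0.954), and Gjc1 most like Lilr4b (0.963), Ube2j1 (0.962) and Phactr4 (0.957). Tmed2 (0.971), Slc4a2 (0.966) and Lpgat1 (0.963) were nearest Hcn4. No gene was named for more than 1 member. The 9 points of each correlation share their depth and tissue make-up. As the highest of 10048 correlations over so few points, r values of this size can also arise among unrelated genes.

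The calls of Gja4 and Gjc1 held under 24 of 26 alternative settings and that of Gja1 under 17 of 26, and the fits that lost Gja4 and Gjc1 were those with the cardiomyocyte or the endothelial score as a covariate. With the endothelial score the log2 fold changes were -0.17 for Gja1, 0.41 for Gja4 and 0.45 for Gjc1 (limma adjusted p = 0.774 and 0.561 for the first 2, and Gjc1 did not pass). With the cardiomyocyte score they were -0.72, 0.83 and 1.06 (limma adjusted p = 0.158, 0.257 and 0.165). As neither score overlaps between the groups, these fits can hardly separate group from score, and 190 and 103 genes passed in them over the whole table.

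**Figure D5:**
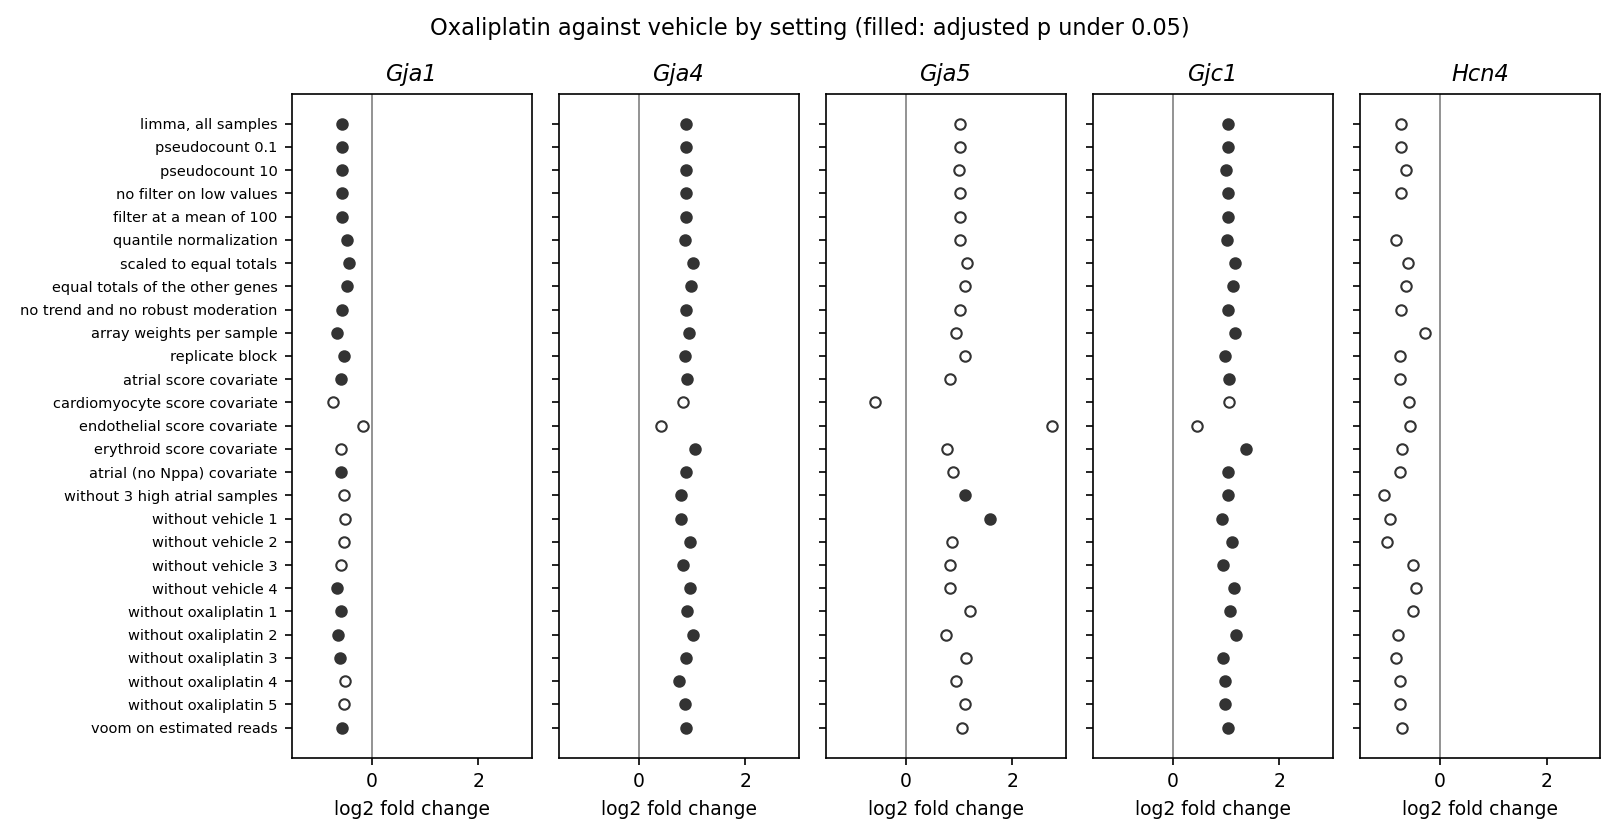
Log2 fold change of each gene (horizontal axis) under each setting (vertical axis; the top line is the fit on all 9 samples), filled where the limma adjusted p was under 0.05. Gja4 and Gjc1 are filled on all lines but 2, Gja1 loses its call on 9, and Gja5 gains one when vehicle 1 or the 3 samples of high atrial score are left out.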

How the data were processed

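RNA sequencing of mouse heart was analysed for 4 vehicle and 5 oxaliplatin samples, grouped by their titles. The authors deposited a signal per gene and sample, named normalized counts per the file headers. RNA of integrity above 8 went into libraries made with a Clontech SMARTer kit, per the labels. The submitters' processing notes name STAR 2.5.1a, Partek and DESeq2 without saying what each did. Genome build, gene annotation and the use of strand are not given in the sources.

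In each sample low values rose in even steps, from which reads were estimated. Within 0.02 of a whole read lay 73.0% to 75.9% of the values of 1 to 1000 estimated reads, which is too few to recover counts, and values were tested on a log scale. A sample's total was 29.4 M to 36.9 M normalized counts. No gene had a maximum below 40.6, so low genes are not in the table.

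The comparison used limma 3.58.1 (R 4.3.3; moderation with trend and robust set) on log2(normalized count + 1), and kept 13788 genes whose mean reached 10. Fold changes refer to this scale and understate those of low genes. Tests were two-sided, with Benjamini-Hochberg adjustment over all genes and a threshold of 0.05. Single values per sample were compared by exact permutation tests in SciPy 1.17.1, adjusted over 7 differences; 2 others that needed Hcn2 were not run. The steps were tested on simulated data.

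The members, gene lists, tests and most alternatives were chosen with earlier results of these data known; voom on estimated reads and the untested differences to further marker scores were added after seeing the data. Of each pathway list the rule named up to 4 genes of smallest p that passed, or 2 where none did; of each cell type list it named up to 2 of highest mean, and 3 genes of most similar pattern per member. Other genes were named after their values were seen. Gene models are those of GENCODE M21, where 13589 symbols matched, and promoter windows are those of RefSeq GRCm38.p6, where 4 of the 5 members measured matched. Alternatives covered the pseudocount, filter, scaling, limma settings, covariates, replicate number as a block and leaving out samples.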

Additional observations from a re-analysis of the deposited data

Results flagged for a closer look

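Within each group, each member and each of the 7 within-sample differences was checked for a sample far from the others, and 3 of 24 groups held one. Chance gives about 1 in 20. Gja5 in vehicle 1, at 1277 normalized counts, stood far above the other vehicle samples, which held 259 to 280. The log2 ratio of Gja5 to Gja1 in the same sample, at -4.10, stood above the other vehicle samples, at -6.26 to -5.91. Vehicle 1 also had the highest atrial score of its group, 3.07; the part of that tissue in the value was not tested. Gja4 minus the endothelial score was 11.2 in oxaliplatin 4, against 10.4 to 10.6 in the other oxaliplatin samples.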

How the results depend on the processing

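Direction held for Gja1, Gja4, Gjc1 and Hcn4 in each alternative run, and Hcn4 gave no value at a mean of at least 100. Genes called numbered 3541 with array weights, 1100 with the erythroid, 190 with the endothelial and 103 with the cardiomyocyte score as a covariate, where 1966 passed otherwise; members called were 0 with the last 2 and 2 with the erythroid score, which ended the call of Gja1 (limma adjusted p = 0.108). Gja5 turned to -0.58 with the cardiomyocyte score. Leaving out a sample gave 1110 to 2388 genes (1237 without vehicle 2, 1110 without vehicle 3 and 1301 without oxaliplatin 4) and 110 to 1315 for the atrial slope, which was 296 after quantile normalization and 454 with the replicate block. The slope of Gja4 was 0.0012 after quantile normalization. With a sample left out, slopes were -0.006 to 0.034 for Gja1 and -0.0498 to 0.024 for Gja4. They were -0.0672 to 0.0161 for Gjc1, -0.0694 to 0.103 for Hcn4 and 0.160 to 0.313 for Gja5. In the same runs Gja5 minus the atrial score differed by -0.92 to 0.86. The cause of these shifts was not tested. Higher genes made up 64.7% of calls, 54.4% after quantile normalization, 55.8% with array weights, 85.9% with equal totals and 79.0% with equal totals of genes other than mitochondrial, globin and atrial ones. Equal totals moved the median of all genes from -0.02 to 0.11, and Gja1, Gja4 and Gjc1 were then at -0.43, 1.02 and 1.16.

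Deviations of samples with the same replicate number correlated at -0.27, -0.06, -0.09 and 0.25, and only number 4 was nearest its own. Whether the numbers pair the samples was not tested. The replicate block gave 1413 genes and 3 members.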
